A study of Mus musculus with 6 samples.

Results

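The genes described here are Fras1, Frem1, Frem2, Grip1 and Npnt, which encode basement membrane proteins of the Fraser complex and their close partners. They were taken by gene symbol from a table of log2 expression values for primary mouse myoblasts, and all 5 were found, each with 1 probe set, among 23279 measured genes. They were chosen by gene family, with the difference between activated and control cultures already known, and Frem2 stood among the genes with the smallest p-values of that comparison. The differences of the 5 genes between the groups are therefore given as a description: standard errors and 95% intervals show their precision, and the fit's thresholds enter only as counts of members, from which nothing is read.

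All 6 arrays came from C57bl6N myoblasts of the limb muscles of mice with a Pax7-CreERT2 transgene and 1 loxP-flanked allele, Beta-cetenin-Exon3-loxP/+ in the spelling of the labels. Control cultures (n = 3) received ethanol and activated cultures (n = 3) received 4-OH tamoxifen in ethanol, which induces recombination and so leaves a beta-catenin without the stretch encoded by exon 3. Both groups carried the same alleles, grew through 5 passages (20% FBS, 2 ng/ml of bFGF) and were finally kept for 24 h in medium with 2% HS. Recombination depends on a Cre driven by Pax7, a gene of muscle stem cells and myoblasts, and the share of recombined cells, the mouse age and the dose are stated in none of the sources used here. A culture with tamoxifen but without the floxed allele was not analysed here, so an effect of tamoxifen itself and of the active beta-catenin cannot be told apart.

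Fras1, Frem1 and Frem2 are large extracellular proteins built from chondroitin sulfate proteoglycan-type repeats and Calx-beta domains. They depend on each other for deposition beneath epithelia, where they help to anchor the basement membrane to the underlying connective tissue, and their loss in mice gives blistering and the defects known in people as Fraser syndrome and related conditions. Grip1, a cytoplasmic scaffold with PDZ domains, binds the tails of Fras1 and Frem2 and is needed to bring them to the cell surface. Npnt encodes nephronectin, a secreted ligand of the integrin alpha8 beta1 with an RGD site, which acts with this complex in the developing kidney. In skeletal muscle and its precursors the complex is less studied than laminin and dystroglycan.

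To show the sequence next to the start site of the member that differed most, of the member with the next larger difference, and of a family member without such a difference, the 250 bases before the annotated start are given for Frem2, Npnt and Frem1 from RefSeq (GRCm38.p6). Capitals mark matches to the searched letters, and the sequences run 5′ to 3′ along the gene.
Frem2, chr3:53657356-53657605, minus strand: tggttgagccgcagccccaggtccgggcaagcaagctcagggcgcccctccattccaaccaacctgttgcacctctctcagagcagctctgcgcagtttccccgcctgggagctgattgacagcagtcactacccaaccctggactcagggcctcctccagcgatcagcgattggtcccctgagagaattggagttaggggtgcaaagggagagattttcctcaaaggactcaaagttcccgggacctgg
Npnt, chr3:132950292-132950541, minus strand: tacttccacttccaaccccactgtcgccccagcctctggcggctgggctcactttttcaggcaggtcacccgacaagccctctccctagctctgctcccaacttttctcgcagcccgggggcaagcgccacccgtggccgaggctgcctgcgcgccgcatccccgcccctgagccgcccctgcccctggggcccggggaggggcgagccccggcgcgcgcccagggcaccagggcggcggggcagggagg
Frem1, chr4:83052167-83052416, minus strand: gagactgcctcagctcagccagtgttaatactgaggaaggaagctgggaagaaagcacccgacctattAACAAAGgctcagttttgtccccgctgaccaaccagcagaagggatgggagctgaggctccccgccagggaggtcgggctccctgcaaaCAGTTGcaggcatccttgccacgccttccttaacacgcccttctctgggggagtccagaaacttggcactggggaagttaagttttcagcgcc
The search covered windows of 300 bases, 250 before and 50 after the start, and both strands. The letters were CTTTGNN, with A or T at each N, for the TCF/LEF partners of beta-catenin, CANNTG for the E-box bound by myogenic factors, and CTA, any 4 bases and TAG for MEF2. No searched motif overlapped another in the member windows. The Frem2 window held none of them. The Frem1 window held CTTTGTT on the opposite strand at position -182 from the start and an E-box at -93. A TCF/LEF match was found in 3 of 8 member windows (both of Frem1, where the other copy lies at -79, and 1 of 3 of Grip1, at -123), against 16.9% of all 32851 windows, and an E-box in 72.3% of all windows. Of the Npnt windows, the one printed had none, and the other, downstream of it in the gene, had 3 E-boxes. The MEF2 letters were in 3.69% of all windows and in no member window. Fras1 is named only. The windows of Frem2 and Npnt were rich in G and C, at 60.3% for Frem2 and 76.7% for the printed Npnt window against a median of 52.7%. A match is a description of the letters and not evidence of binding.

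Frem2 was the member that differed most, and the controls were tightly grouped. On the log2 scale control replicates 1 to 3 gave 4.34, 4.47 and 4.51, against 7.41, 7.40 and 6.27 for activated replicates 1 to 3. Every activated array lay above every control array, and activated replicate 3 was lower than the other activated arrays. The mean was 4.44 ± 0.09 with ethanol and 7.03 ± 0.66 with 4-OH tamoxifen (SD, n = 3 each). The difference of 2.59 ± 0.34 (SE) on the log2 scale corresponds to a 6.0-fold higher level and ranked 27 among the 23279 genes by size of the increase. By replicate number the difference was 3.08, 2.93 and 1.75. In these bulk samples, more cells that express a gene and more RNA per cell cannot be told apart. The control values lay close to the array medians (4.16 to 4.36), and no detection calls were used here, so whether Frem2 was expressed in control cultures is not shown.

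**Figure D1:**
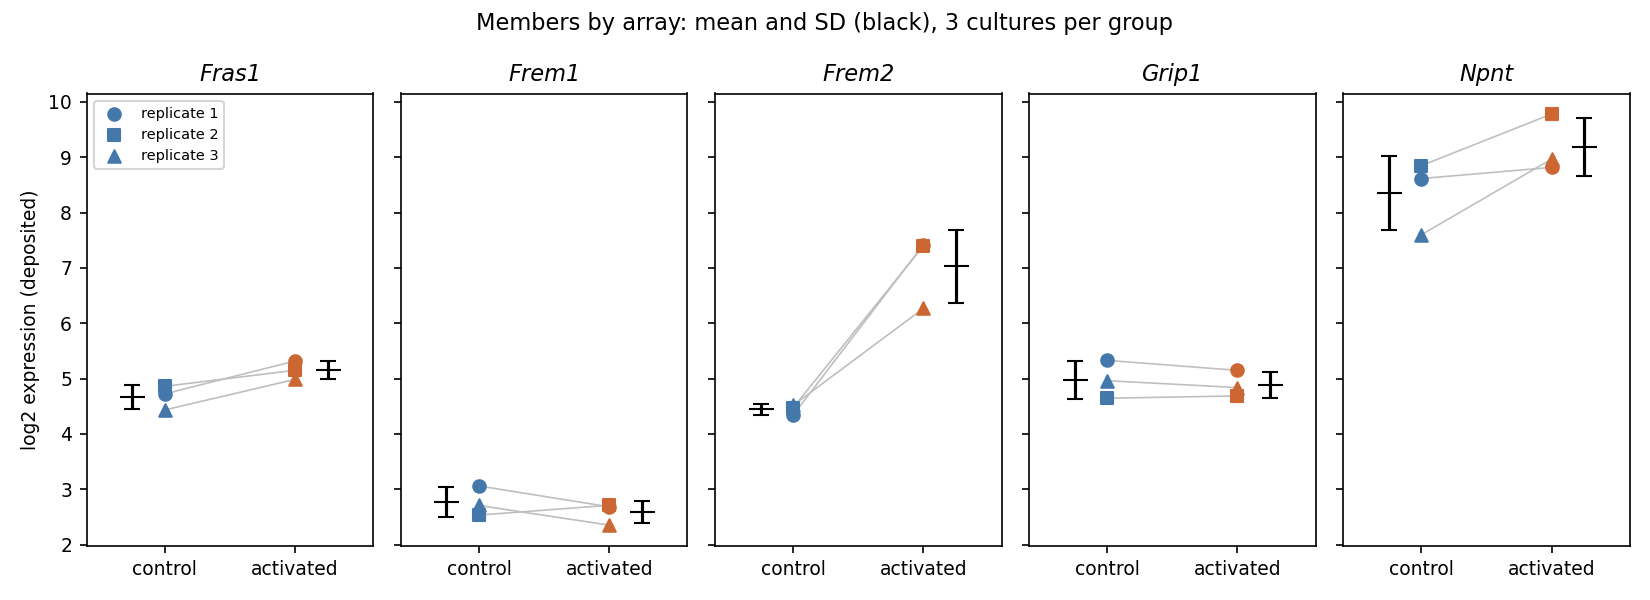
Deposited log2 expression (vertical axis) of Fras1, Frem1, Frem2, Grip1 and Npnt in 3 control (blue) and 3 activated (orange) cultures. Symbols give the replicate number, grey lines join arrays of the same number, and black bars are the mean and SD of each group. Frem2 lies at 4.34 to 4.51 in control and at 6.27 to 7.41 in activated cultures, while the Frem1 and Grip1 groups overlap.

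Fras1, the founding protein of the complex, differed by far less than Frem2. Control replicates 1 to 3 gave 4.72, 4.86 and 4.43, and activated replicates 1 to 3 gave 5.32, 5.15 and 4.98. The groups did not overlap, and the gap between the highest control and the lowest activated array was small beside the spread within the groups. The means were 4.67 ± 0.22 (SD, n = 3) and 5.15 ± 0.17, a difference of 0.48 ± 0.22 (SE), or 1.39-fold. The pair differences were 0.59, 0.29 and 0.55. The 95% interval of the difference ran from -0.04 to 1.00, and from 0.01 to 0.94 when the replicate number entered as a block. Fras1 lay above the array median on all 6 arrays (medians of 4.16 to 4.36 in control cultures). No detection calls were used here, so whether Fras1 was expressed in control cultures is not shown.

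Frem1, a secreted member of the Frem family, was dim on every array. In replicates 1 to 3 it reached 3.06, 2.53 and 2.71 with ethanol and 2.68, 2.71 and 2.35 with 4-OH tamoxifen, below the array median in all 6 cultures. The groups overlapped, and the difference was -0.18 ± 0.24 (SE) with a 95% interval from -0.74 to 0.37. Its size was -0.03 after quantile normalization and -0.05 after median centring. No detection calls were used for this dim probe set.

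Grip1, the intracellular adaptor of Fras1 and Frem2, showed no difference beyond the spread of the cultures. Replicates 1 to 3 gave 5.33, 4.64 and 4.96 with ethanol and 5.15, 4.69 and 4.84 with 4-OH tamoxifen. The groups overlapped, with replicate 1 the highest and replicate 2 the lowest in both. The difference was -0.09 ± 0.26 (SE) with a 95% interval from -0.70 to 0.52, and its sign turned to 0.05 after median centring. The probe set is that of Entrez gene 74053, glutamate receptor interacting protein, and not of the nuclear receptor coactivator that also went by the name GRIP1.

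Npnt had high values on every array and varied most between cultures within a group. Its values were 8.61, 8.85 and 7.60 for control replicates 1 to 3, against 8.82, 9.78 and 8.97 for activated replicates 1 to 3. Control replicate 3 was the lowest array and activated replicate 2 the highest. The groups overlapped only in that control replicate 2 lay just above activated replicate 1. The means were 8.35 ± 0.66 (SD, n = 3) and 9.19 ± 0.52, a difference of 0.83 ± 0.41 (SE) with a 95% interval from -0.12 to 1.78, or 0.17 to 1.5 in the blocked fit. By number it was 0.20, 0.93 and 1.37. The difference depended on the scaling of the arrays, at 0.49 after quantile normalization and 0.41 after cyclic loess, and on 1 array, at 0.46 without control replicate 3. It was 0.54 without activated replicate 2.

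**Figure D2:**
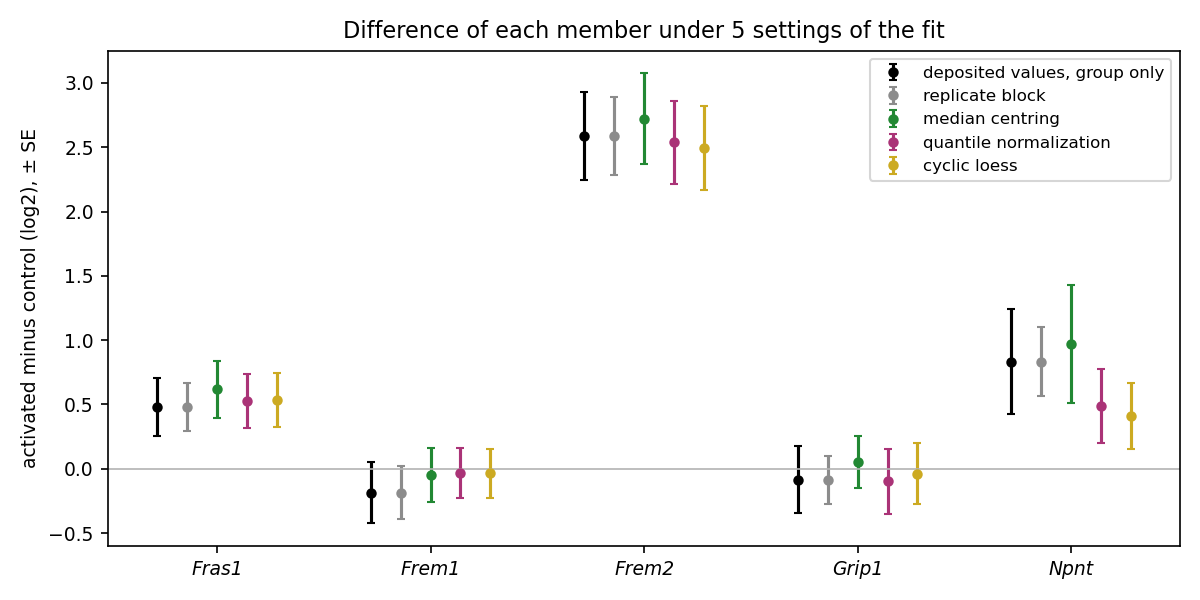
Difference between activated and control cultures in log2 expression (vertical axis, ± SE) for the 5 genes under 5 settings of the limma fit, by colour. Frem2 stays between 2.50 and 2.72 in all 5, Npnt moves from 0.97 after median centring to 0.41 after cyclic loess, and Grip1 and Frem1 stay within 0.20 of 0.

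In the linear model across all genes (limma, Benjamini-Hochberg adjustment), 0 of 23279 genes had an adjusted p under 0.05 (0%), and 0 of the 5 members did. The difference was above 0 in 3 members, in 40.3% of all genes and in 58.7% of genes with a mean level above the median of all genes. After median centring, which moved the median difference of all genes from -0.08 to 0.05, it was above 0 in 4 members and in 57.0% of genes. At an unadjusted p under 0.05, 1 member was among the 4.44% of genes that were higher and 0 among the 3.42% that were lower. When the replicate number entered as a block, 31 genes (0.133%) passed the adjusted threshold, of which 0 were members, and 3 members were among the 9.63% that were higher at an unadjusted p under 0.05, against 0 among the 7.01% that were lower. In 2 members, Frem2 and Fras1, each activated array exceeded each control array, as in 5.40% of all genes, and 0 members showed the reverse, as did 7.40%. Because the members were chosen with this comparison known, these counts describe them and are not support for a change of the group. Without activated replicate 3, the lowest activated array for Frem2, its difference was 2.97 ± 0.26 (SE). In that fit 28 of 23279 genes passed the adjusted threshold in place of 0, and the count of members was 1 in place of 0. The array left out is the one that lowers Frem2, so nothing is read from this count.

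The 5 profiles did not run together. The distance between 2 profiles is given here as the root mean square difference of log2 values, each centred on the gene's mean, over the 6 arrays. It was 1.05 between Frem2 and Npnt, 1.11 between Frem2 and Fras1, 1.41 between Frem2 and Grip1 and 1.42 between Frem2 and Frem1. Grip1 and Frem1, which both varied little, were 0.18 apart, and Fras1 and Npnt 0.45. A small distance between genes that hardly vary shows only that both are flat.

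Outside the members, the genes with the profile most like that of Frem2 were Grik1, a kainate-type glutamate receptor subunit (distance 0.22), Sorbs2, an adaptor of the Z-disc and actin cytoskeleton (0.22), and Dmd, which encodes dystrophin (0.27). Control replicates 1 to 3 of Grik1 gave 3.88, 3.42 and 3.48, and its activated replicates 6.40, 6.30 and 5.34. The group means of Sorbs2 were 6.52 ± 0.17 and 8.83 ± 0.76 (SD, n = 3; control first), and those of Dmd 5.50 ± 0.10 and 7.87 ± 0.99. All 3 had activated replicate 3 as the lowest activated array, as Frem2 did. They were picked for their likeness over the same 6 arrays, and none passed the adjusted threshold in limma (adjusted p of 0.175, 0.203 and 0.256). After quantile normalization Grik1, Dmd and Sorbs2 ranked 1, 4 and 9 in likeness to Frem2.

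Npnt was most like Mvp (0.09), Rcn2 (0.10) and C9orf72 (0.10), which shared the low value in control replicate 3. Their ranks fell to 578, 184 and 976 after quantile normalization. Fras1 was most like Golga3 (0.06), Fam199x (0.07) and Ly6g2 (0.07), of which Golga3 fell to rank 533 and Ly6g2 to rank 98. The nearest genes of Grip1 were Nr5a2, Sowahd and Brdt (0.03, 0.03 and 0.04) and those of Frem1 were 5330439B14Rik, Igkv3-7 and 8430436N08Rik (0.03, 0.04 and 0.04). These 6 genes hardly differed between the groups, with differences from -0.19 to -0.03.

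**Figure D3:**
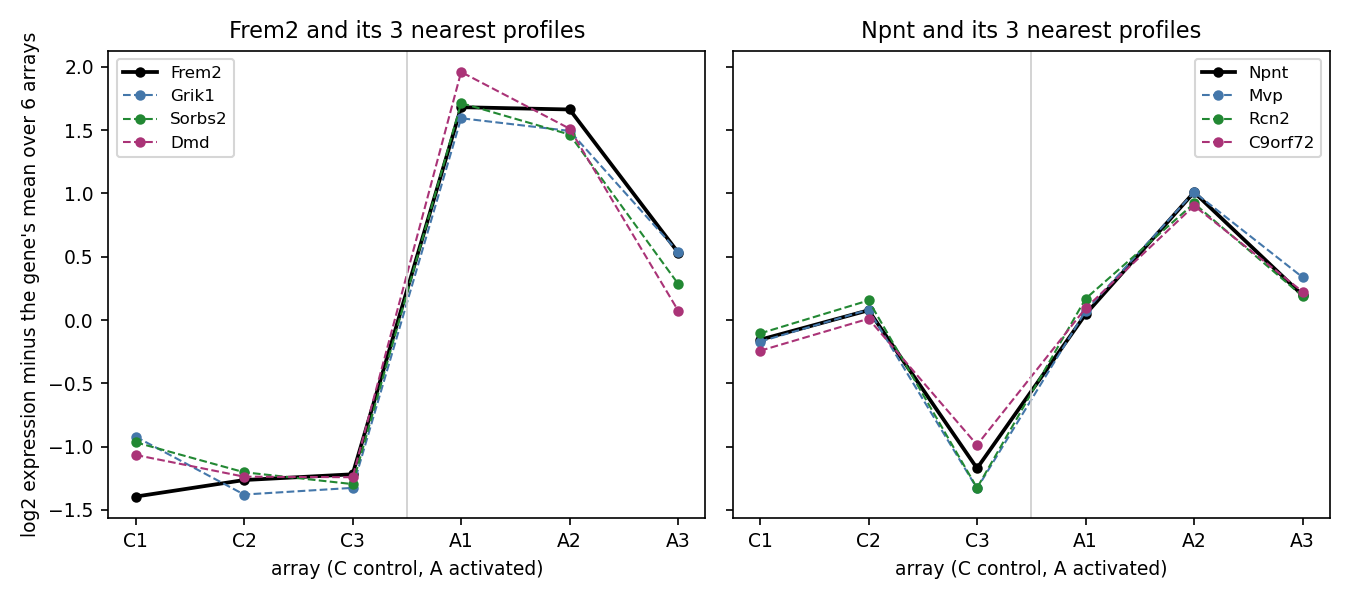
Log2 expression minus the gene's mean over 6 arrays (vertical axis) for Frem2 (left) and Npnt (right), in black, with the 3 genes of the smallest distance to each, over control (C1 to C3) and activated (A1 to A3) arrays. The lines only guide the eye. Grik1, Sorbs2 and Dmd share with Frem2 the low value of activated replicate 3 among the activated arrays, and Mvp, Rcn2 and C9orf72 share with Npnt the low value of control replicate 3.

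Genes around the complex lay on both sides of 0. Of the 10 partner genes, 4 were higher and 6 lower in activated cultures, with a median difference of -0.10 against -0.08 for all genes, and 6 were higher after median centring, quantile normalization or cyclic loess. None passed the adjusted threshold in limma (0 of 10, and 0 with the block). At an unadjusted p under 0.05, 1 was higher and 1 lower, against 4.44% and 3.42% of all genes. The related matrix proteins were low: Frem3, the remaining Frem protein, had means of 2.32 ± 0.16 with ethanol and 2.23 ± 0.15 with 4-OH tamoxifen (SD, n = 3). The hemicentins Hmcn1 and Hmcn2 differed by -0.12 ± 0.20 and -0.30 ± 0.25 (SE), the latter by -0.15 without control replicate 3. Vwa2, which encodes AMACO, a basement membrane protein that binds Fras1, differed by -0.29 ± 0.31, and by -0.14 after quantile normalization, -0.04 without control replicate 1 and -0.50 without control replicate 2. Frem3 and Hmcn1 changed sign, to 0.02 and 0.04, after quantile normalization. Grip2, the close relative of Grip1, was at 3.80 ± 0.09 and 3.92 ± 0.09, and Cspg4, a transmembrane proteoglycan of myoblasts and pericytes that binds Grip1, differed by 0.55 ± 0.31 (SE; 0.28 without activated replicate 3). Furin, a protease that processes secreted and membrane proteins, differed by 0.28 ± 0.45, with a sign that turned without control replicate 1 (-0.08).

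The receptor of Npnt is described here by subunit. Itga8, the alpha subunit that pairs with beta1 to bind nephronectin, gave 3.08, 2.56 and 2.90 with ethanol (replicates 1 to 3) and 2.70, 2.32 and 2.83 with 4-OH tamoxifen, below the array median on all 6 arrays. The Itga8 groups overlapped, and its difference was -0.23 ± 0.25 (SE), or -0.08 after quantile normalization. Itgb1, the beta1 subunit shared by many integrins, was at 9.38, 9.11 and 8.28 in control and at 9.85, 10.24 and 9.97 in activated cultures, and its groups did not overlap. Its difference was 1.10 ± 0.32 (SE; limma, adjusted p = 0.433), 0.71 after quantile normalization and 0.62 after cyclic loess. Egfl6, a nephronectin-like ligand of the same integrin, was the partner with the lower value at an unadjusted p under 0.05. It lay at 4.28, 3.47 and 4.19 in control and at 3.01, 3.36 and 3.41 in activated cultures (limma, adjusted p = 0.599). Egfl6 was below the array median on all 6 arrays, and by replicate number its difference was -1.27, -0.11 and -0.79. Among the 5 measured RGD ligands of this integrin, Npnt and 1 other were higher and 3 lower, with a median difference of -0.04. Vtn (vitronectin) differed by -0.25 ± 0.31 (SE), by -0.53 without activated replicate 1 and by -0.002 without activated replicate 2. None of the 5 passed the adjusted threshold in limma. At an unadjusted p under 0.05, 0 were higher and 1 (Egfl6) lower, against 4.44% and 3.42% of all genes. After median centring 3 of the 5 had a difference above 0.

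**Figure D4:**
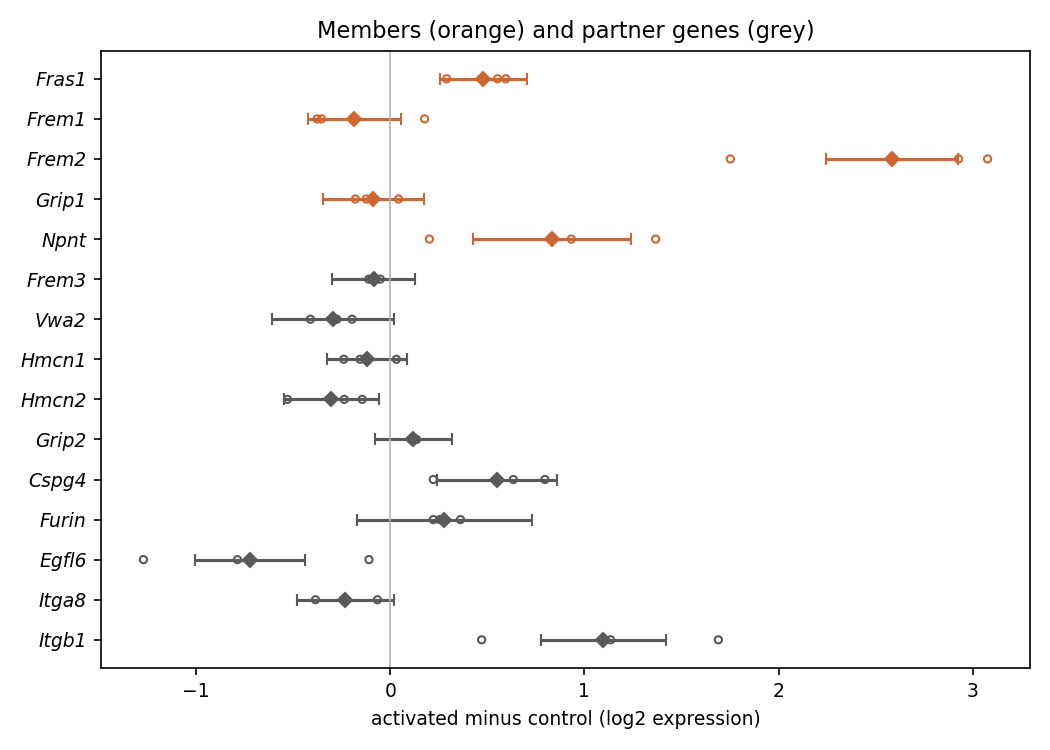
Difference between activated and control cultures in log2 expression (horizontal axis) for the 5 members (orange) and 10 partner genes (grey). Diamonds and bars are the difference and its SE, and open circles the 3 differences by replicate number. Frem2 at 2.59 lies apart from the others, which run from Egfl6 at -0.72 to Itgb1 at 1.10.

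Most core genes of the basement membrane were lower in activated cultures, as were most genes: the difference was above 0 in 40.3% of all genes. Among genes with a mean level above the median it was above 0 in 58.7%. Of 27 measured core basement membrane genes (laminin chains, type IV collagens, nidogens, perlecan and others), 7 were higher (10 after median centring) and 20 lower, with a median difference of -0.23 against -0.08 for all genes. Of the 27, 10 lay below the array median on all 6 arrays. None passed the adjusted threshold in limma (0 of 27, and 0 with the block). At an unadjusted p under 0.05, 2 were higher and 1 lower, against 4.44% and 3.42% of all genes. With the block 3 were higher and 6 lower, against 9.63% and 7.01% of all genes. Nid2, a linker between laminin and collagen networks, had means of 7.01 ± 0.66 with ethanol and 8.37 ± 0.33 with 4-OH tamoxifen (SD, n = 3; limma, adjusted p = 0.397). Fbln1, a fibulin, was at 5.51 ± 0.40 and 4.40 ± 0.40 (adjusted p = 0.404). Lamb2, the laminin beta2 chain, differed by 0.82 ± 0.35 (SE), and by 0.55 after quantile normalization.

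Of 21 matrix receptor genes 12 were higher and 9 lower, with a median difference of 0.38. Of the 21, 15 lay above the array median on all 6 arrays. The difference was above 0 in 40.3% of all genes and in 58.7% of genes with a mean level above the median. None of the 21 passed the adjusted threshold in limma. At an unadjusted p under 0.05, 5 were higher and 0 lower, against 4.44% and 3.42% of all genes. With the block 6 were higher and 2 lower, against 9.63% and 7.01%. The gene lists too were chosen with earlier results of these data known, so their counts are a description. Next to Itgb1, those with the smallest p were Dag1, which encodes dystroglycan, a laminin receptor (means of 6.06 ± 0.81 and 7.81 ± 1.10, control first; SD, n = 3), and Itga7, the alpha subunit of the muscle laminin receptor (6.99 ± 0.59 and 7.97 ± 0.41). Neither passed in limma (adjusted p of 0.544 and 0.568). The Dag1 groups overlapped, but its differences by replicate number were 1.77, 2.03 and 1.45, and its adjusted p with the block was 0.0541. Of 17 measured genes on the list of Grip1 binding partners, which holds Fras1 and Frem2 too, 9 were higher and 8 lower, with a median of 0.01. None passed the adjusted threshold in limma. At an unadjusted p under 0.05, 3 were higher and 0 lower, against the same 4.44% and 3.42% of all genes. Outside the members, the smallest p were those of Kif5b, a kinesin heavy chain that Grip1 links to its cargo (0.71 ± 0.28, SE; 0.35 after quantile normalization), and Ppfia4, a liprin (0.81 ± 0.32, and 0.51 without activated replicate 2).

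Of 8 myoblast and muscle stem cell genes, the markers of the labelled cell type, 7 lay above the array median on all 6 arrays, Pax7 and Myod1 among them and Myf5 being the exception. So did all 12 differentiated muscle markers, 3 of 8 smooth muscle, 3 of 8 leukocyte, 3 of 11 fibroblast, 3 of 14 epithelial, 2 of 6 neural and 1 of 9 endothelial markers. A level above the array median does not by itself identify a cell type. The share of all genes above or below the array median on all 6 arrays is not given here. The counts of markers on either side of it therefore only describe their brightness. Within the myoblast list 6 of 8 genes were higher (5 after quantile normalization), against 40.3% of all genes and 58.7% of those with a mean level above the median. In limma 4 were higher and 1 lower at an unadjusted p under 0.05, against 4.44% and 3.42% of all genes. Des, which encodes desmin, differed by 1.56 ± 0.36 (SE, with 1.03 after cyclic loess) and the adhesion molecule Vcam1 by -1.38 ± 0.38. Pax7, the other lower gene of the list, differed by -0.60 ± 0.31 (SE), and its groups overlapped. Axin2, a feedback target of beta-catenin, differed by 1.65 ± 0.35 (SE), whereas the whole-gene probe set of Ctnnb1 differed by 0.02 ± 0.31 (SE; -0.34 after quantile normalization) and does not check the loss of an exon. The mean of 12 differentiated muscle markers did not overlap between the groups either: it ran from 7.73 to 9.22 in control and from 9.81 to 10.57 in activated cultures. Of the 12, 11 were higher, against 40.3% of all genes and 58.7% of genes with a mean level above the median. In limma 8 were higher and 0 lower at an unadjusted p under 0.05, against 4.44% and 3.42% of all genes. Mybph differed by 2.25 ± 0.48 and Myh3 by 1.32 ± 0.33 (SE), the latter by 0.83 after cyclic loess. The part of these 12 markers in the Frem2 difference was not tested.

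Since Fras1 and Frem proteins are best known from epithelia, markers of epithelial cells were set beside them. Of 14 such markers 2 were higher and 12 lower, while 40.3% of all genes were higher (58.7% of those with a mean level above the median). After quantile normalization 7 of the 14 and 48.4% of all genes were higher. The mean of the 14 ran from 3.79 to 4.01 in control and from 3.68 to 3.83 in activated cultures. Of the 14, 8 lay below the array median on all 6 arrays, Epcam, Cdh1 and Krt14 among them, with Cdh1 at 3.68 ± 0.38 and 3.18 ± 0.04 (SD, n = 3). The keratins Krt8 and Krt18 and the claudin Cldn3 lay above it on all 6. Krt18 was at 5.08 ± 0.64 and 4.44 ± 0.15, a difference of -0.64 that was -0.29 without control replicate 2. Trp63, which encodes the p63 factor of basal epithelia, gave 4.39, 4.29 and 4.50 with ethanol (replicates 1 to 3) and 5.28, 5.29 and 3.89 with 4-OH tamoxifen. Trp63 was among the 2 higher markers, against 12 lower, and was named after its values were seen. Its difference was 0.43 ± 0.39 (SE, limma adjusted p = 0.778), and its activated replicate 3 was below all controls. The part of epithelial markers in the Frem2 difference was not tested.

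Markers of other cells were for the most part lower as well, while the difference was above 0 in 40.3% of all genes. Many were dim. Below the array median on all 6 arrays lay 7 of 11 fibroblast, 7 of 9 endothelial and 4 of 8 leukocyte markers. So did 3 of 8 smooth muscle and 1 of 6 neural markers. Of 11 fibroblast markers 9 were lower (means of 3.88 to 3.98 in control and 3.47 to 3.75 in activated cultures), with Fbln1 as above and Cd34 at -0.62 ± 0.27 (SE; -0.36 without control replicate 2), and 5 were higher after quantile normalization. Endothelial markers were lower for 7 of 9 genes, with Esam at -0.37 ± 0.25 and Egfl7 at -0.34 ± 0.23, and their means ran from 3.27 to 3.44 and from 3.03 to 3.28. Leukocyte markers were lower for 7 of 8 (5 after median centring), with Fcer1g at -0.67 ± 0.25 and Csf1r at -0.54 ± 0.24 (-0.33 after cyclic loess) and means of 3.74 to 4.40 and 3.59 to 3.87. Of 8 smooth muscle and pericyte markers 6 were lower (3 after quantile normalization), and the means ran from 5.16 to 5.31 and from 5.09 to 5.22. Rgs5 differed by -1.78 ± 0.55 and Acta2 by 1.08 ± 0.39 (cyclic loess gave 0.60 and quantile normalization 0.71). The Rgs5 groups overlapped, and by replicate number its difference was -2.45, -2.97 and 0.07. Of 6 measured neural and Schwann cell markers 5 were lower, with Mbp at -0.69 ± 0.21 and Tubb3, the exception, at 3.16 ± 0.74, and means of 4.41 to 4.73 and 4.50 to 4.88. None of these markers passed the adjusted threshold in limma with all 6 arrays, and their part in the differences of the members was not tested.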

How the data were processed

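Biotin-labelled target from 100 ng of total RNA per culture was hybridised to Affymetrix arrays, per the labels' protocols. The authors deposited log2 values, and the submitters' processing notes name RMA and Partek without role or version. The array design, the genome build and any detection calls were stated in none of the sources used here. Of 24479 probe sets, 23281 had 1 symbol in the platform annotation; the brighter probe set was kept for 2 symbols, leaving 23279 genes. Array SDs ran from 1.72 to 2.12, so values depend on how arrays are scaled to each other.

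Limma 3.58.1 (R 4.3.3) was fitted with group as the only term, with two-sided moderated tests and Benjamini-Hochberg adjustment over all genes. Errors of differences are limma's SEs. An exact permutation test of 3 against 3 cannot go below p = 0.10. In simulated data for activated against control with 23279 genes, the fit called 4% of the genes planted at 2-fold, 74% at 4-fold and 98% at 8-fold, with 9 false calls. On the real arrays the same fit called 0 of 23279 genes, and Frem2 at 6.0-fold was not called. The simulated shares therefore do not tell how often a change of that size is found in these cultures. The labels name independent cultures but not the animals behind them, so p-values measure the spread between cultures, and the number of arrays limits the precision.

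Both groups use the same replicate numbers. Same-numbered arrays deviated from their group means together, with correlations of 0.38, 0.49 and 0.45 for numbers 1, 2 and 3, all above 0.1, so the numbers, which come from the titles, were taken to pair the arrays and a fit with them as a block was run too. The pairing was thus read from the same values that the blocked fit uses. Replicate 2 also had the lowest median and the highest SD in both groups. Whether shared cultures or array scaling gave these correlations was not tested.

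Members and lists were chosen with earlier results of these data known. The text names all members and partner genes, the 3 genes of each other pathway list and the 2 of each marker list with the smallest p, and the 3 genes with the nearest profile to each member. Other genes named (Epcam, Krt14, Krt8, Cldn3, Trp63, Pax7, Myod1, Myf5) were added after their values were seen. The alternatives were 3 scalings, a filter on dim genes, all probe sets, 2 variance models, the block and leaving out arrays or pairs. Promoter windows (GRCm38.p6) came from RefSeq and were matched by symbol for 4 of 5 members. The build of the probe sets is unknown, so their coordinates are not given.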

Additional observations from a re-analysis of the deposited data

How the results depend on the processing

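Frem2, Fras1 and Npnt kept their direction under every alternative that was run, and Frem1 too; the filter on dim genes left Frem1 without a value. The difference of Grip1 turned from -0.09 to 0.051 after median centring; the cause was not tested. Leaving out 1 array gave 2.39 to 2.97 for Frem2, 0.36 to 0.57 for Fras1, 0.46 to 1.08 for Npnt, -0.30 to -0.04 for Frem1 and -0.25 to 0.088 for Grip1. With the replicate block, 31 of 23279 genes passed instead of 0, none of them a member. Without activated replicate 3 it was 28 of 23279 genes and 1 member (range over arrays left out 0 to 28 and 0 to 1). With the replicate block and 1 pair left out, the count ran from 0 to 492 of 23279 genes and from 0 to 1 member. Frem2 was then at 2.34 to 3.00, and fewer arrays entered each of these fits. With all 6 arrays the block took no named gene past the adjusted threshold (limma). Without pair 3 Dag1 (1.90), Vcam1 (-1.72), Mybph (2.09), Rgs5 (-2.71), Grik1 (2.69), Sorbs2 (2.67) and Dmd (2.89) passed it, and without activated replicate 3 and with no block Grik1, Sorbs2 and Dmd. At an unadjusted p under 0.05 the count of members was 1 without and 3 with the block. The count of genes at an unadjusted p under 0.05 was 1034 higher and 796 lower in the fit without a block, 1342 and 518 after median centring, 938 and 837 after quantile normalization, and 522 and 385 without activated replicate 2. It was 1592 and 1474 without control replicate 2 and 1663 and 1545 after quantile normalization with the block.

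Values near 0 turned sign as follows, with the cause not tested. After median centring Frem3 was at 0.052, Hmcn1 at 0.016, 8430436N08Rik at 0.00364, Nr5a2 at 0.024, Sowahd at 0.045 and Brdt at 0.11. After quantile normalization, with or without the replicate block, Frem3 was at 0.021, Hmcn1 at 0.044, Nr5a2 at 0.0504, Sowahd at 0.0785, Brdt at 0.13 and Ctnnb1 at -0.34. After cyclic loess they were at 0.032, 0.033, 0.0821, 0.11, 0.13 and -0.38. Leaving out 1 array gave -0.17 to 0.0044 for Frem3, -0.0778 to 0.65 for Furin, -0.24 to 0.0082 for 8430436N08Rik, -0.27 to 0.0503 for Nr5a2, -0.26 to 0.11 for Sowahd, -0.19 to 0.14 for Brdt and -0.17 to 0.33 for Ctnnb1. With the replicate block and 1 pair left out, Brdt reached 0.036 and Ctnnb1 -0.00906 and -0.28. Signal below the array median on all 6 arrays limits what Frem1, Frem3, Grip2, Hmcn1, Egfl6 and Itga8 can show.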
